A study of Mus musculus with 3 samples.

Results

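The regions described here are H3K4me3 peaks that lay inside protein-coding genes, far from both ends of every such gene, and that overlapped a peak of the transcription factor ETV5. Peaks were taken on chromosomes 1 to 19 and X when they were at least 600 bp and under 3.5 kb long, shared at least 1 bp with an ETV5 peak, and had their summit inside a protein-coding gene of the GRCm38 RefSeq table and over 5 kb from either end of all protein-coding genes. By this rule 902 of the 15134 deposited H3K4me3 peaks were kept, in 806 host genes. The peaks were chosen on their measured H3K4me3 and on their overlap with measured ETV5, so their enrichment values are a description and support nothing by themselves. Chromatin came from AT2 cells (alveolar type II, the surfactant-secreting epithelial cells of the lung) of C57BL/6 mice aged 10 to 12 weeks. It was immunoprecipitated with an antibody to ETV5 or to H3K4me3 and sequenced, and an input library without antibody is listed beside them. There was 1 library per antibody, from a preparation of many cells, so no difference here has a replicate check, and no test between conditions was possible. Intervals are exact 95% limits (Clopper-Pearson for shares, Poisson for fragment counts). They cover counting error only, and neighbouring peaks and peaks in 1 gene are not independent.

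H3K4me3, trimethylation of lysine 4 on histone H3, marks the nucleosomes around active and poised transcription starts. A gene can have several promoters. A start inside the longest annotated form gives a shorter transcript, often with another first exon, and an H3K4me3 peak deep inside a gene is a candidate for such an inner promoter. ETV5 belongs to the ETS family of DNA-binding proteins. It is a known effector of FGF receptor and ERK signalling and is needed to keep AT2 cells, which also serve as stem cells of the alveolus, in their state. ETS factors bind a GGAA core, and many of them prefer the form CCGGAA.

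The sequence just before 8 inner starts is given as a set of picked examples, not as a typical sample. All 8 had an ETV5 fold above the set's median of 10.4. Of 465 inner host starts with ETV5, 23.9% held CCGGAA in a 300-bp window. Each stretch is the 250 bases before a listed transcript start of the host gene, from RefSeq on GRCm38.p6, written 5′ to 3′ on the gene's strand, and each lies within its H3K4me3 peak. Capitals mark CCGGAA, the ETS-preferred form, or TTCCGG, the same motif on the other strand. The first 6 were shown because they hold the motif and their hosts have known functions. The last 2, with 2 of the highest ETV5 folds, were shown because they lack it.
Senp7, chr16:56075230-56075479, plus strand: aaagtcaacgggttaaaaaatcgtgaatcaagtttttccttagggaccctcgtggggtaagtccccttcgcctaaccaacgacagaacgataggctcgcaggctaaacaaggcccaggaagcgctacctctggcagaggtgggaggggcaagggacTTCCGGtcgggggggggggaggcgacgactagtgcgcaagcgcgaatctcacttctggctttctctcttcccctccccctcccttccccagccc
Letmd1, chr15:100468761-100469010, plus strand: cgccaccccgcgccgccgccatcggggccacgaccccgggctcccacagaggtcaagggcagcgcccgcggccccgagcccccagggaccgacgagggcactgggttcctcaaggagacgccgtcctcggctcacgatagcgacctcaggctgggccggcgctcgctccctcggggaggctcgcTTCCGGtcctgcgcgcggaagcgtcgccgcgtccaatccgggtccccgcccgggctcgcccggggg
Arhgef7, chr8:11758115-11758364, plus strand: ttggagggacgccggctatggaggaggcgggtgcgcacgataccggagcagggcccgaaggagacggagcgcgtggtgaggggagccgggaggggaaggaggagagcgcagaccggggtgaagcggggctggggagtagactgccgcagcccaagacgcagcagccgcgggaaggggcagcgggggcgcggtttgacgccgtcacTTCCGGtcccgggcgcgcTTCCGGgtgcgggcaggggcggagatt
Insig2, chr1:121327679-121327928, minus strand: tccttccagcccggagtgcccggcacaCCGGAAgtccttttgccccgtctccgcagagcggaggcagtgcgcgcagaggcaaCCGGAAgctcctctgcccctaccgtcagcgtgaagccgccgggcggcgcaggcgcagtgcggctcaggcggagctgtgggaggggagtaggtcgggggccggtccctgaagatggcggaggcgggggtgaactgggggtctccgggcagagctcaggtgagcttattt
Xiap, chrX:42068148-42068397, plus strand: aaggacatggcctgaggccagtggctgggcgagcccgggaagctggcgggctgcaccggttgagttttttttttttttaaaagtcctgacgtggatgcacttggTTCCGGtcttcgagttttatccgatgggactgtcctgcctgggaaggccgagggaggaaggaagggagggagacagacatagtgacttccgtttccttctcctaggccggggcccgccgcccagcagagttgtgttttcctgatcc
Srebf1, chr11:60210472-60210721, minus strand: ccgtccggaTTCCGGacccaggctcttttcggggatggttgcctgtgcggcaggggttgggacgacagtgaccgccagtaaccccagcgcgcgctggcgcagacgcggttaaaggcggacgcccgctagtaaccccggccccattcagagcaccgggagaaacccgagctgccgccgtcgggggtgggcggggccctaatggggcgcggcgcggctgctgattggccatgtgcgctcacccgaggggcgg
Mia2, chr12:59131231-59131480, plus strand: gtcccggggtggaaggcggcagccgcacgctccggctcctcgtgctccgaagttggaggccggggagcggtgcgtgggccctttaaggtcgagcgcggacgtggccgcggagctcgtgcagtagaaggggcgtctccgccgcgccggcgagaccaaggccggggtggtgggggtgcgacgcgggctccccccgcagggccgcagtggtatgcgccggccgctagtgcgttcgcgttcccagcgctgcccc
Rabgap1, chr2:37452004-37452253, plus strand: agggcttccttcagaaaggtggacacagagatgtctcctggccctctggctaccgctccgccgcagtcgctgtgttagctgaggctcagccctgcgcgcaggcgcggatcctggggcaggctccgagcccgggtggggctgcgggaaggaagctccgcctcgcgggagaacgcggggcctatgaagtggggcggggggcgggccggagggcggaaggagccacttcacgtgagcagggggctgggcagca
In Senp7, which encodes a SUMO protease, the motif began 94 bases before the start, and the ETV5 summit lay 19 bp after it. Arhgef7, a guanine nucleotide exchange factor for Rac and Cdc42, held the motif 45 and 27 bases before its start, with the ETV5 summit 71 bp before it. Insig2 encodes an endoplasmic reticulum protein that holds back SREBP processing. Its motifs began 223 and 168 bases before the start, and its ETV5 summit lay 217 bp before the start. In Letmd1, Xiap and Srebf1 the motif began 66, 146 and 241 bases before the start. Their ETV5 summits lay 168, 34 and 58 bp before it, farther from the motif than in Arhgef7 and Insig2. Mia2, a cargo factor of endoplasmic reticulum exit sites, and Rabgap1, a GTPase-activating protein for Rab proteins, had ETV5 folds of 125 and 98.0 without CCGGAA in the printed stretch. The Rabgap1 stretch does hold CGGAAG, an ETS form that overlaps CCGGAA.

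Inner H3K4me3 peaks overlapped ETV5 less often than H3K4me3 peaks at gene ends. Of 1129 inner peaks in this range of length, 902 overlapped an ETV5 peak (79.9%, interval 77.4 to 82.2%). At gene ends, defined as a summit within 1 kb of an end of a protein-coding gene, 8489 of 8910 peaks did (95.3%, interval 94.8 to 95.7%). Between genes and over 5 kb from them the count was 501 of 748 (67.0%, interval 63.5 to 70.3%). Over all H3K4me3 peaks of this length 91.4% overlapped ETV5, so the overlap that defines the set was the common state.

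The shortfall at inner peaks was largest at weak H3K4me3. When all H3K4me3 peaks in the range of length were divided into 5 groups of equal number by their fold enrichment, the authors' ratio of fragments to local input background, 63.5% of the inner peaks in the lowest group overlapped ETV5 (interval 59.0 to 67.8%), against 80.6% at gene ends (78.0 to 82.9%). In the next group the shares were 83.1% (77.6 to 87.8%) and 92.5% (91.1 to 93.7%). In the 3 groups above they were 95.7, 95.7 and 100% inside genes and 97.0, 98.9 and 99.7% at gene ends. For the middle of these 3 groups the intervals were 90.8 to 98.4% inside genes and 98.4 to 99.3% at gene ends. Fold and length were not matched between locations within a group. Where ETV5 was present, its median fold rose with the H3K4me3 group in both locations, from 7.99 to 17.3 inside genes and from 8.57 to 19.8 at gene ends. Inner peaks without ETV5 were short and weak, with a median length of 848 bp and a median H3K4me3 fold of 8.98 over 227 peaks.

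**Figure D1:**
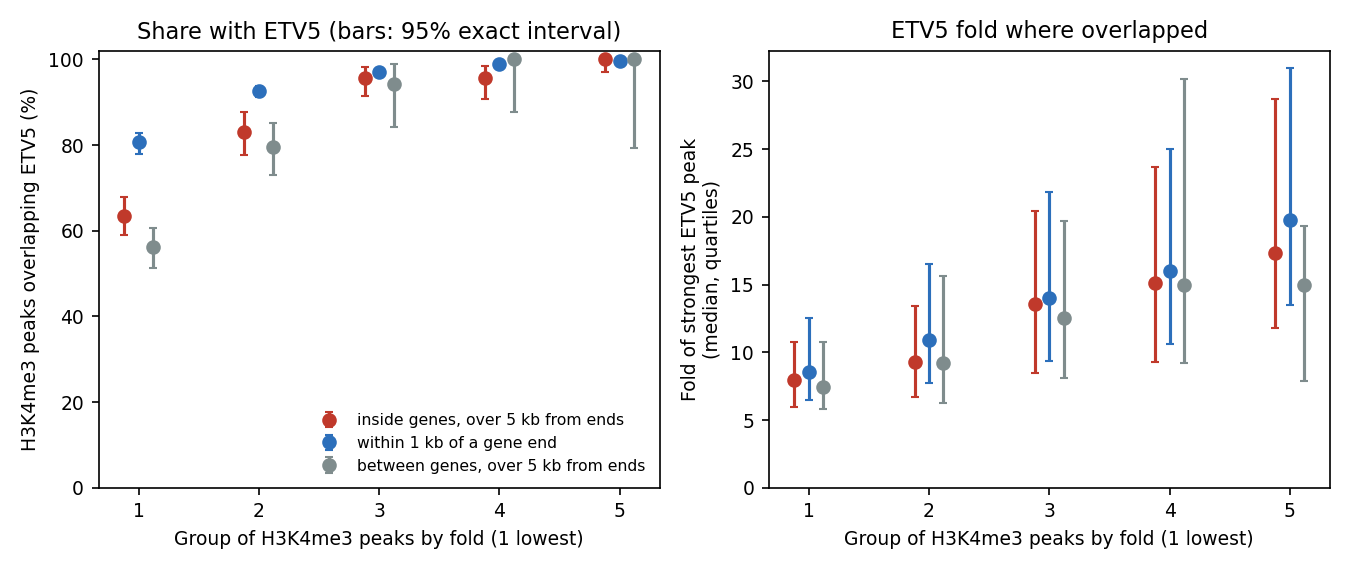
Left, the percentage of H3K4me3 peaks of 600 bp to under 3.5 kb that overlap an ETV5 peak, in 5 groups of H3K4me3 peaks from lowest to highest fold, for peaks inside genes, at gene ends and between genes (points, with exact 95% intervals as bars). Right, the fold of the strongest overlapping ETV5 peak (median, bars from the lower to the upper quartile). Inner peaks lie below gene-end peaks in the lowest group, at 63.5 against 80.6%, and reach 100% in the highest.

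The 902 inner peaks with ETV5 had a median length of 1287 bp (quartiles 918 and 1812) and a median H3K4me3 fold of 23.1 (11.6 and 37.2). Their H3K4me3 folds ran from 2.99 to 72.1. The strongest ETV5 peak in each had a median fold of 10.4 (7.14 and 16.9), with a range of 3.25 to 149, and a median pileup of 21 fragments at its summit. Gene-end peaks with ETV5 stood higher on both measures, with median folds of 35.0 for H3K4me3 and 14.3 for ETV5. Those between genes stood lower, at 14.3 and 8.60. An ETV5 fold of at least 10 was reached in 475 inner peaks (52.7%), and in 71.0% of gene-end peaks and 39.7% of those between genes. The ETV5 and H3K4me3 folds come from lists with different depth and input, so the values of one are not on the scale of the other.

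ETV5 and H3K4me3 summits lay close together in the inner peaks. The median distance between them was 190 bp (quartiles 89 and 341), against 199 bp at gene ends, and the ETV5 summit fell inside the H3K4me3 peak in 857 of 902. More than 1 ETV5 peak lay in 208 inner peaks (23.1%), against 18.1% at gene ends. Across inner peaks the rank correlation of the 2 folds was 0.46 (n = 902), and it was 0.40 at gene ends (n = 8489). Both folds come from 1 library each and share the openness, base composition and mappability of the region, so the correlation describes these libraries. H3K4me3 fold also rose with peak length among the inner peaks (rank correlation 0.67, n = 902).

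**Figure D2:**
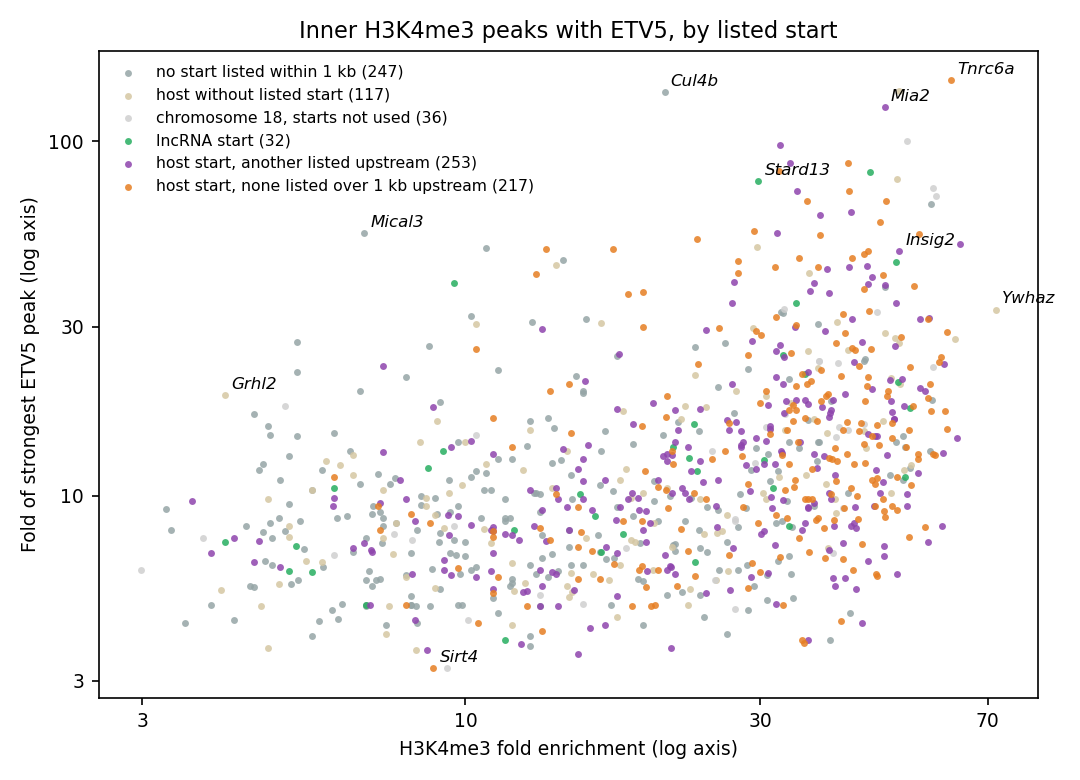
Each point is 1 of the 902 inner H3K4me3 peaks with ETV5, placed by its H3K4me3 fold (horizontal, log axis) and the fold of its strongest ETV5 peak (vertical, log axis), and coloured by the transcript start listed within 1 kb of it. Peaks at a listed host start have a median H3K4me3 fold of 31.8, and those with no listed start in a host that has an entry 12.7. Cul4b and Mical3 combine high ETV5 with H3K4me3 folds of 21.0 and 6.86, below the median of 23.1 for all inner peaks.

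More than 50% of the inner peaks sat on a transcript start that RefSeq lists for the host gene. Starts were read from a table of 32851 starts of protein-coding and lncRNA genes that is not complete, and starts on chromosome 18 were not used here, which left 866 inner peaks. A start of the host lay within 1 kb of the H3K4me3 summit in 470 of these (54.3%, interval 50.9 to 57.6%). For 253 the host had another start listed over 1 kb upstream (29.2%), and for 217 the host had none listed over 1 kb upstream (25.1%). In these 217 the inner start was, to within 1 kb, the most upstream start listed for the host. The annotated 5′ end of the host was not itself a listed start there. Whether such a start is an inner promoter or the main promoter of its host was not tested. A further 32 lay at a start of an lncRNA (3.70%), 247 had no listed start (28.5%), and 117 were in a host that has no entry in the table and had no other listed start (13.5%). Inner peaks without ETV5 were at a listed start less often, in 62 of 213 (29.1%, interval 23.1 to 35.7%), against 502 of 866 with ETV5 (58.0%, interval 54.6 to 61.3%). Strength moved with this difference, since the inner peaks without ETV5 were weaker in H3K4me3, and its part in the result was not tested.

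Both marks were strongest at host starts with no other start listed over 1 kb upstream. The median H3K4me3 fold was 35.1 there, 27.2 at a start with another listed upstream, 22.3 at lncRNA starts and 12.7 where no start was listed in a host that has an entry. ETV5 followed with median folds of 13.1, 10.5, 11.5 and 8.64, and an ETV5 fold of at least 10 was reached in 65.0, 53.4, 62.5 and 39.7% of the peaks. The 117 peaks whose host has no entry stood between, with median folds of 18.2 for H3K4me3 and 10.2 for ETV5 and 53.0% at an ETV5 fold of at least 10, close to the 53.4% at starts with another upstream. Leaving these out, the peaks also grew shorter in this order, apart from lncRNA starts, with medians of 1524, 1319, 1423 and 1035 bp. The rank correlation of the 2 folds was 0.42 at listed host starts (n = 470) and 0.23 where no start was listed (n = 247).

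ETV5 summits at inner starts were placed around the start much as at gene ends. The strongest ETV5 summit lay within 250 bp of the listed start in 328 of 470 inner peaks (69.8%, interval 65.4 to 73.9%) and in 74.2% of 6281 gene-end peaks at a listed start (interval 73.1 to 75.3%). It lay downstream of the start in 63.4% inside genes and 63.8% at gene ends, with medians of +71.5 and +52.0 bp. The H3K4me3 summit lay further downstream, at a median of +212 bp inside genes and +227 bp at gene ends. It was downstream in 87.2% of inner starts (83.9 to 90.1%) and in 95.3% at gene ends (94.8 to 95.8%). A gene-end peak was counted here only if its H3K4me3 summit lay inside the gene, which left out summits upstream of the gene. Inner peaks could fall on either side of the start, so the downstream shares for H3K4me3 are not comparable. The gene-end values for ETV5 rest on these same peaks.

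**Figure D3:**
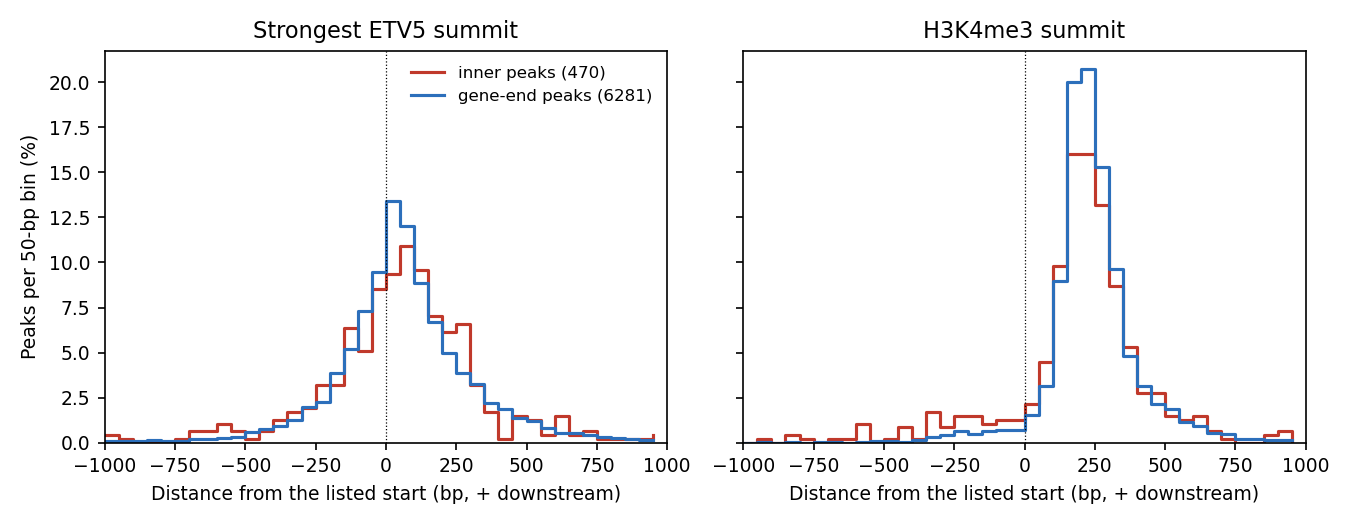
Distance from the listed host start to the summit of the strongest ETV5 peak (left) and to the H3K4me3 summit (right), in bp with + downstream, as the percentage of peaks per 50-bp bin. The 470 inner peaks and the 6281 gene-end peaks both have ETV5 centred near the start and H3K4me3 a median of 212 and 227 bp downstream. Gene-end peaks are included only if their H3K4me3 summit lies inside the gene, so the sides are not comparable between the sets.

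The ETS motif was most common at the inner starts with the highest ETV5. CCGGAA was searched on both strands in the 300-bp window from 250 bases before to 50 bases after each listed start. It was found at 111 of 465 distinct inner host starts with ETV5 (23.9%, interval 20.1 to 28.0%) and at 7 of 60 inner host starts without ETV5 (11.7%, interval 4.82 to 22.6%). Of all listed coding starts 18.7% held it, and of gene-end starts with ETV5 32.7%. When the inner peaks were divided into 3 groups of nearly equal number by ETV5 fold, the motif was present at the starts of 10.9% (folds of 3.25 to 9.09), 22.3% (9.10 to 16.0) and 38.3% (16.1 to 149). The intervals were 6.48 to 16.9% in the lowest group and 30.6 to 46.5% in the highest. They cover counting error only. The groups were cut on folds from the same ETV5 library that defined the set, so the intervals are not a test between groups. Gene-end starts, divided in the same way by their own ETV5 folds, gave 16.3, 27.5 and 54.3%.

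The ETS gradient was accompanied by others. From the lowest to the highest group, the window's median CpG ratio, observed over expected CpG, was 0.605, 0.776 and 0.820. The GC box GGGCGG, a motif of Sp1-like factors, was present in 62.2, 72.6 and 81.8% of the windows, and CGGAAG, which overlaps CCGGAA, in 9.62, 24.8 and 44.2%. When the inner starts were divided at their median CpG ratio and each side was grouped again by ETV5 fold, CCGGAA was present in 7.59, 17.9 and 34.6% on the CpG-poor side. On the CpG-rich side it was present in 15.4, 29.5 and 38.2%, so the order was the same on each side. The median CpG ratio also rose within each side, from 0.502 to 0.635 on the poor side and from 0.868 to 0.912 on the rich side. The split therefore does not separate the motif from CpG, and the part of each was not tested. At the 167 inner starts with the ETV5 summit inside the window, the shares were 17.9, 37.5 and 56.4% from the lowest to the highest group. Among inner peaks with a CCGGAA in the window, the median distance from ETV5 summit to nearest motif was 82.5 bp, and 65 of 112 (58.0%) were within 100 bp. At gene ends that median was 58.0 bp.

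**Figure D4:**
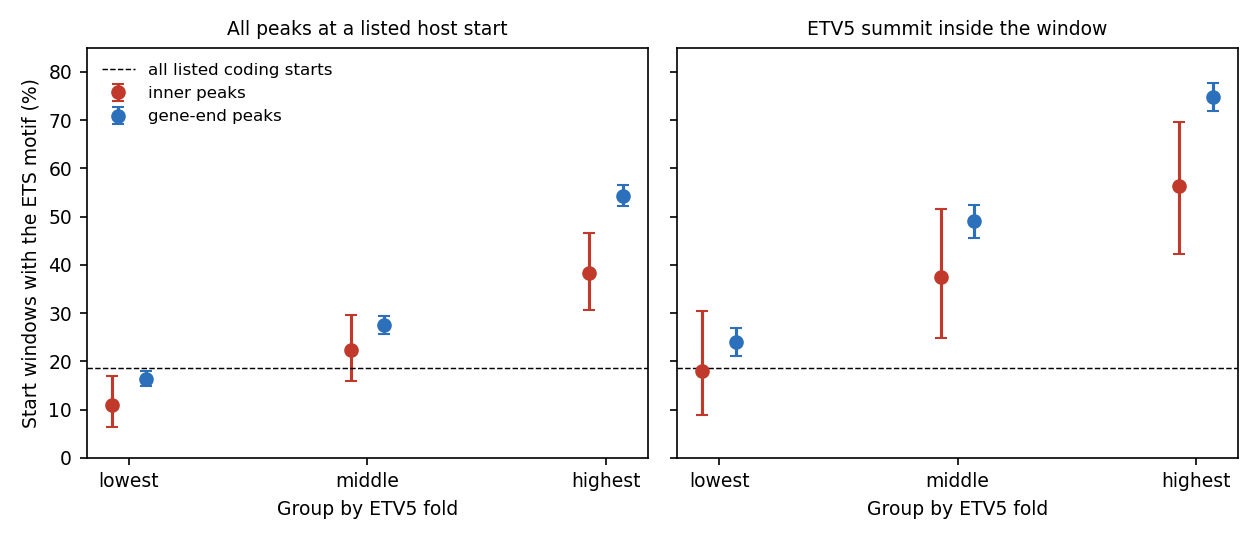
Percentage of 300-bp start windows that hold CCGGAA on either strand, in 3 groups of ETV5 fold, for inner peaks and gene-end peaks at a listed host start (points, with exact 95% intervals), for all such peaks (left) and for those whose ETV5 summit lies in the window (right). The dashed line is the 18.7% of all listed coding starts; inner peaks go from 10.9 to 38.3% on the left, below the gene-end peaks in each group, which were formed on each set's own folds.

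The GC box differed more from all coding starts than the ETS motif did. GGGCGG was in 72.0% of inner host-start windows (interval 67.7 to 76.1%) and in 46.2% of all coding windows, beside 73.2% at gene-end starts with ETV5 and 26.7% at inner starts without it. CGGAAG was in 26.2% of inner windows (22.3 to 30.5%) and 21.1% of all. The bare core GGAA was in 94.8% of inner windows and 95.7% of all coding windows. The TATA box TATAAA was in 3.66% of inner windows, against 12.6% of all. CCAAT, bound by NF-Y, was in 34.6 and 38.2%, and the AP-1 motif TGANTCA in 5.81 and 6.99%. Inner starts with ETV5 were rich in CpG, with a median ratio of 0.729 and a GC content of 63.3%, against 0.567 and 56.3% over all coding starts. Inner starts without ETV5 stood at 0.427 and 51.7%, and gene-end starts with ETV5 at a CpG ratio of 0.812. A motif match is a description of letters in this window, not a shown binding site.

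Many hosts had no H3K4me3 at their own 5′ end. The strand was known for the host of 740 inner peaks. In 376 of these no H3K4me3 peak lay within 1 kb of the annotated 5′ end (50.8%, interval 47.1 to 54.5%), and in 364 one did. The same share over all protein-coding genes over 10 kb was not computed, so the 50.8% is not shown to be particular to these hosts. At the 3′ end H3K4me3 was found for 25 (3.38%). The unmarked share was 64.5% (57.8 to 70.9%) where the host had no start listed over 1 kb upstream of the inner one, 49.8% (43.5 to 56.1%) where another start was listed upstream, and 38.9% (32.8 to 45.3%) where no start was listed. In the first of these classes the annotated 5′ end was not itself a listed start, so a missing mark there need not concern a promoter in use. Inner peaks whose host had an unmarked 5′ end had median folds of 27.2 for H3K4me3 and 11.1 for ETV5. Where the 5′ end did carry H3K4me3, the inner peak had the higher H3K4me3 fold in 161 of 364 (44.2%, interval 39.1 to 49.5%). ETV5 was at both places in 384, with the inner fold higher in 170 (44.3%, interval 39.2 to 49.4%). In these pairs the 5′ end was more often the stronger place for each mark. The sides are not matched, since the 5′ end value was the highest of any peak there, of any length. Hosts of several inner peaks also entered once per peak, so the pairs are not independent.

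Inner peaks lay toward the front of their hosts. The median position was 38.7% of the gene's length from the 5′ end (quartiles 23.1 and 59.0), and 483 of 740 (65.3%) were in the first 50% of the gene. The median distance to the nearest gene end was 16032 bp. Inner peaks at a host start with none listed over 1 kb upstream were a median of 13281 bp from the annotated 5′ end, those with another start upstream 21080 bp, and those with no listed start 35917 bp. Of the inner peaks, 165 (18.3%) lay within 5 kb of another H3K4me3 peak, and the median gap to the next was 23228 bp. The rule keeps these peaks over 5 kb from gene ends, where most H3K4me3 peaks of this length lie. Their spacing is thus partly set by the selection. Exons and introns were not used here, so positions are given relative to gene ends and listed starts.

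The inner peak with the highest ETV5 fold was in Tnrc6a, a partner of Argonaute in miRNA-guided silencing. It spanned chr7:123123441-123125284, with an ETV5 fold of 149 from a pileup of 241 fragments (interval 212 to 273) and an H3K4me3 fold of 61.1. Its ETV5 summit lay 228 bp after a host start with none listed over 1 kb upstream. Its H3K4me3 summit lay 93321 bp from the gene's annotated 5′ end, which had no H3K4me3. Oxr1, an oxidation resistance gene, had an ETV5 fold of 139, and Cul4b, an X-linked gene for a ubiquitin ligase scaffold, had 138. The H3K4me3 fold of Cul4b was 21.0, below the median of all inner peaks but above the median of 18.3 for those on X, and no start was listed there. Mia2 followed at 125 and Ctdp1, a phosphatase of the RNA polymerase II tail, at 100. Rabgap1 had 98.0, Senp7 87.0 and Aff1, a scaffold of the super elongation complex, 86.9.

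By H3K4me3 the leading inner peak was in Ywhaz, which encodes 14-3-3 zeta, with a fold of 72.1 over 3446 bp and an ETV5 fold of 33.5. Elf2, itself an ETS factor, had an H3K4me3 fold of 63.2 at an inner host start and an ETV5 fold of 51.2, against 47.7 and 16.4 at its own 5′ end. C77080 (H3K4me3 fold 62.4), Hexim2, an inhibitor of the elongation kinase P-TEFb (61.9), Tmpo, a lamina-associated protein (60.2), Nrbp1 (60.1) and Rsbn1l (59.8) came next, beside Tnrc6a. Their ETV5 folds were lower and ran from 14.5 to 28.9, so strong H3K4me3 did not always go with very high ETV5. The widest inner peaks were in Nr3c1, the glucocorticoid receptor gene, with 3483 bp, then Sorbs3 and Ywhaz. The lowest ETV5 folds were 3.57 in Zscan18, 3.26 in Oacyl and 3.25 in Sirt4, a mitochondrial sirtuin. Their pileups of 10, 7 and 9 fragments carry wide counting error, with an interval of 4.12 to 17.1 for Sirt4.

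Some peaks lay close to the limits of the rule. A peak of 602 bp in Rnf43 (ETV5 fold 8.46) was just kept, and those of 598 bp in Zfp516 (3.81) and 597 bp in Osbpl3 (13.4) were just too short. Above the upper limit stood Cldn18, a claudin gene of lung epithelium, with a length of 3508 bp and an ETV5 fold of 5.25, and Bicral with 3556 bp and 19.6. By distance, Rusc2 was just kept at 5009 bp (54.6) and Plcd1 at 5013 bp (6.01), and Tns2 was just left out at 4992 bp (6.93). In all, 189 inner peaks with ETV5 were too short and 28 too long.

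Long genes hosted inner peaks more often, as the distance rule favours them. Of 13889 protein-coding genes over 10 kb, 806 hosted at least 1 (5.80%). The share rose from 2.11% at 10 to 25 kb through 5.19 and 8.19% to 12.0% at 100 to 200 kb and 12.7% above 200 kb. Gene lists are read against these values. They were drawn up with earlier results of these data known, so they are not independent evidence.

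Among transcription factors of lung epithelium, 12 of 29 genes over 10 kb hosted an inner peak (41.4%, median length of the 29 genes 86.9 kb). Rora, a nuclear receptor, had an ETV5 fold of 38.7 with H3K4me3 at 47.7. Foxp1, a forkhead factor of lung epithelium, had 3 inner peaks with ETV5 folds of 33.0, 21.6 and 9.83. Nr3c1 had 23.1, Rara, a retinoic acid receptor gene, 22.8 and 12.3, Nfix 21.8 and 6.89, and Grhl2, a regulator of epithelial junctions, 19.2 over H3K4me3 of only 4.08. Lower values stood in Hopx (12.5), Tead1 (9.32), Grhl1 (8.63) and Elf5 (7.51), another ETS factor. Hopx marks alveolar type I cells, the flat gas-exchange cells, and with Clic5 (8.62) was 1 of the 2 hosts among 16 type I genes (12.5%).

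Of 16 AT2 marker genes over 10 kb, none hosted an inner peak (0 of 16, median length 24.9 kb). The authors' H3K4me3 peaks did lie at an end of all 10 defining AT2 markers checked, among them Sftpc, Sftpb, Abca3 and Lamp3. They lay at an end of 0 of 4 endothelial, 1 of 4 leukocyte (Spi1), 0 of 4 mesenchymal, 2 of 3 ciliated (Foxj1, Rsph1) and 0 of 3 airway secretory markers. Among longer lists of other cell types, 1 of 15 endothelial genes (Egfl7, ETV5 fold 12.7), 1 of 14 leukocyte genes (Lcp1, 4.90), 0 of 10 mesenchymal genes and 0 of 11 airway genes hosted an inner peak. These shares are near or below the background for all genes over 10 kb.

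Lipid genes hosted inner peaks in 9 of 42 (21.4%, median length 49.6 kb). Insig2 led with an ETV5 fold of 49.0 and H3K4me3 of 50.3, and its 5′ end had no H3K4me3. Srebf1 encodes SREBP1, the activator of fatty acid synthesis genes that Insig proteins restrain. Its inner peak had an ETV5 fold of 17.6 and H3K4me3 of 24.0 at a host start. Its 5′ end had ETV5 at a fold of 12.8 but no H3K4me3 peak. The enzymes Lpin3 (18.2), Gpam (15.4), Acaca (14.7) and Agpat3 (13.4) followed. Acaca, acetyl-CoA carboxylase, had H3K4me3 of 51.0 inside the gene and 33.8 at its 5′ end.

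Genes of the cytoskeleton and cell junctions hosted them in 15 of 71 (21.1%, median length 145 kb). Tpm1, a tropomyosin gene with several known promoters, had an ETV5 fold of 66.5 and H3K4me3 of 56.6. Mical3 had 55.2 over H3K4me3 of 6.86. The tight junction scaffold gene Tjp1 had 44.3, Tpm3 39.6 and Myo1c 37.9.

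Genes of the FGF receptor and ERK pathway, which acts upstream of ETV5, hosted inner peaks in 5 of 38 (13.2%, median length 64.3 kb). Among them the ETV5 fold was 12.7 in Araf, a Raf kinase gene, 10.4 in Rapgef2, 10.2 in Erbb3 and 4.37 in Grb2, an adaptor of receptor kinases. A list of 45 genes known for inner promoters, with a median length of 319 kb, hosted inner peaks in 17 (37.8%). Prkag2, a subunit of AMP-activated kinase, led it with ETV5 folds of 40.0 and 32.6 at 2 host starts and no H3K4me3 at the 5′ end. Foxp1, Pde4d, Nfatc1, Nr3c1 and Rara came next.

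Several inner peaks lay in 1 gene in 88 hosts: 78 held 2, 6 held 3, 2 held 4, 1 held 5 and 1 held 6. These are counts of called peaks, not of separate promoters. Of all inner peaks, 73 (8.09%) lay within 1 kb of another H3K4me3 peak. In Abhd18 and in Arntl both inner peaks overlapped the same ETV5 peak. Whether such neighbours are 1 split region was not tested. Nfia, a nuclear factor I gene, held 6 over a span of 117 kb, with H3K4me3 folds of 8.92 to 51.4 and ETV5 folds of 6.97 to 13.7, and its 5′ end had no H3K4me3. Of the Nfia peaks, 2 lay under 1 kb apart. Bcor, the BCL6 corepressor gene on X, held 5 over 56.1 kb, with ETV5 folds of 9.28 to 46.3 against 14.2 at its 5′ end. Pde4d, a cyclic AMP phosphodiesterase gene with many known promoters, held 4 over 691 kb. Its highest ETV5 fold was 32.2 on H3K4me3 of 10.2, and its highest H3K4me3 fold of 24.3 had the lowest ETV5 fold, 4.53. Arhgap23 also held 4, with ETV5 folds of 4.87 to 17.8. Rai1 held 3 with ETV5 folds of 13.8, 15.2 and 26.5, against 19.7 at its 5′ end. Dab2ip, a Ras GTPase-activating protein, held 3, up to 30.6, and Pxn, which encodes paxillin, 3 up to 16.2. Tmem29 and Apex2 overlap and share the same 3 peaks, with ETV5 folds of 6.89, 9.26 and 11.8.

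**Figure D5:**
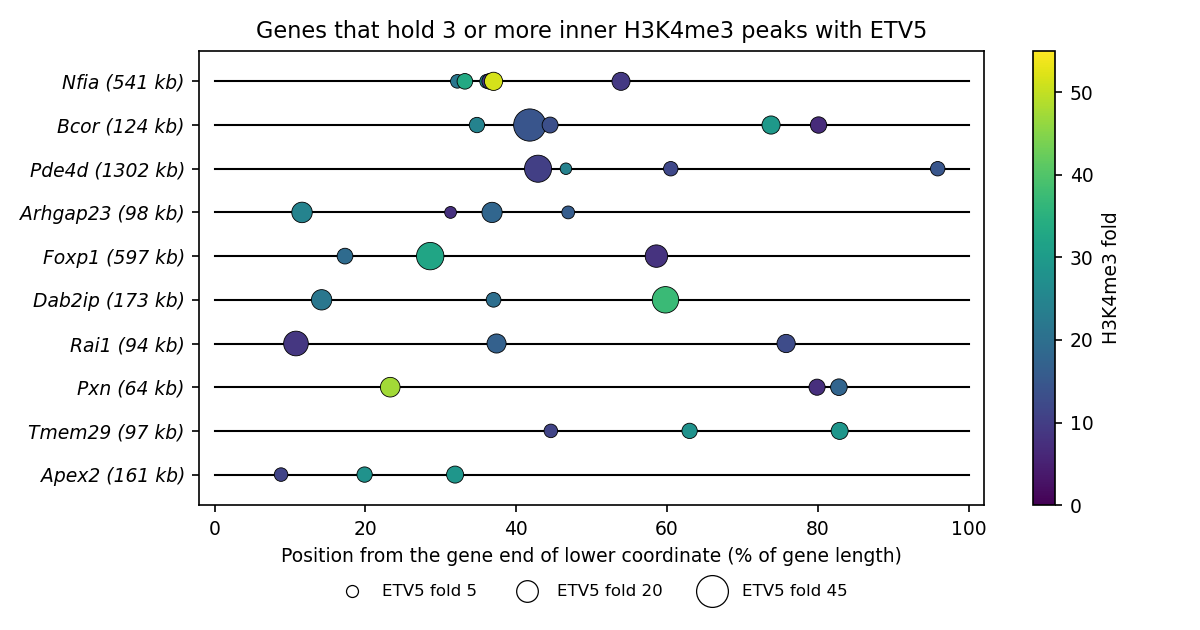
Each line is a gene that holds 3 or more inner H3K4me3 peaks with ETV5, drawn from the end of lower coordinate (0%) to the other end (100% of gene length). Circles are the peaks, sized by ETV5 fold and coloured by H3K4me3 fold. The 6 peaks of Nfia lie between 32.2 and 53.9% of the gene, those of Bcor are led by 1 peak at an ETV5 fold of 46.3, and Tmem29 and Apex2 share the same 3 peaks.

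Some inner peaks lay at an end of a non-coding gene. An end of such a gene was within 1 kb of 119 of 866 (13.7%), an lncRNA in 105 and a miRNA gene in 7. That share was 13.8% at gene-end peaks with ETV5, 9.86% at inner peaks without ETV5 and 44.6% between genes, so the inner share was no higher than at gene ends. With the listed starts, 528 of 866 (61.0%) lay near a listed start or a non-coding end, and 338 (39.0%) near neither. The share near one was 84.2% at gene-end peaks, 34.3% at inner peaks without ETV5, and 219 of 487 with ETV5 between genes. The highest ETV5 folds among those at a non-coding end were 81.9 in Pfdn4, a chaperone subunit gene, at the lncRNA Gm16796, and 77.1 in Stard13 at 1700028E10Rik. Epc1, which is on chromosome 18 and outside those counts, had 73.9 near Mir1893. Mdm4, an inhibitor of p53, had 72.6, Letmd1 68.1 and Prdm10 59.2. At Mdm4, Letmd1 and Prdm10 a host start was listed as well, so the transcript to which the marks belong cannot be told apart here.

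On the X chromosome 25 of 31 inner peaks of this length overlapped ETV5. Their median H3K4me3 fold was 18.3, against 23.5 on the autosomes, and their median ETV5 fold was 9.81. Gene-end peaks on X had a median H3K4me3 fold of 23.6. After Cul4b, the highest ETV5 folds on X were in Bcor (46.3), Xiap, an inhibitor of caspases (37.7), and Tceanc (37.0). The inner peaks of Xiap and Tceanc both lay at a host start with none listed over 1 kb upstream, and neither gene had H3K4me3 at its 5′ end.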

How the data were processed

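ETV5 and H3K4me3 ChIP-seq gave 1 library each from mouse AT2 cells, and the antibody given in the labels set the groups. The authors called peaks separately for each library with MACS2 2.1.0.20150420, per the submitters' notes and file headers, at a q-value threshold of 0.05, with at most 1 tag kept per position. Per the file headers the ETV5 list used 5715049 tags of 75 bp against 27495486 input tags, and the H3K4me3 list 34907608 tags of 50 bp against 44758677. The input named for ETV5 in its header is not the one the labels describe. Lower ETV5 depth limits which weak ETV5 peaks could be called. The name of an aligner was not given in the sources used here. Each pileup signal is the authors' fragment count at the summit. The fold enrichment ratio, −log10 p-value and −log10 q-value are as the authors deposited them.

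The labels name mm9, but the coordinates are GRCm38: 66.1% of H3K4me3 summits lay within 1 kb of a listed GRCm38.p6 start, against 3.28% with starts moved 1 Mb. Peaks were overlapped by at least 1 bp with scipy 1.17.1 and pandas 2.3.3 (numpy 2.4.6, Python 3.11.15). The overlap, distance and motif code was tested on simulated data. Host strand was taken from the start table. The members and lists were chosen with earlier results of these data known. Genes named in the text are the 8 highest by each fold, the 3 widest, the 3 lowest by ETV5 fold, hosts of 3 or more members, up to 6 hosts per list, up to 6 at non-coding ends, up to 4 on X and those at each limit. Some items that this rule would name are not reported here. A few other list hosts (Hopx, Tead1, Grhl1, Elf5) were named after their values were seen. Alternatives changed the distance, length, overlap, q-value, fold and gene-end rules.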

Additional observations from a re-analysis of the deposited data

How the results depend on the processing

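The main counts, shares and medians were recomputed under 7 other rules fixed with the design and 1 chosen after seeing the data (starts within 500 bp). Of the recomputed values, 34 moved by less than their error or kept their count within 1.5 times, and 23 moved further, with the cause not tested. With members over 2 kb from gene ends there were 1387 peaks in 1252 hosts, 82.6% of inner peaks had ETV5, the median ETV5 fold was 11.1, and 47.4% had H3K4me3 at a host end. At over 10 kb the hosts were 536, the ETV5 share 76.7% and the share near a listed start or non-coding end 57.4%. With no length limit the ETV5 share was 65.5%, the median ETV5 fold 9.78, the median H3K4me3 fold 18.6 and the near share 55.1%. Requiring the ETV5 summit inside the peak gave an ETV5 share of 76.9%. An ETV5 −log10 q of at least 10 gave 57.9%, median folds of 13.4 and 29.1 and a near share of 65.3%. An H3K4me3 fold of at least 10 gave 87.8%, median folds of 11.7 and 29.5 and a near share of 68.4%. Using the ends of all annotated genes gave a near share of 56.1%, and starts within 500 bp gave 55.3%. No paired analysis was possible because there is 1 library per antibody and the labels carry no replicate numbers. An ETV5 pileup of 21, the median of the inner peaks, limits the precision of single weak peaks.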
